A study of Rattus norvegicus with 4 samples.

Results

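The genes described here are 8 of the 32883 genes in the deposited matrices, chosen by symbol as the rat renin-angiotensin and mineralocorticoid genes: the precursor Agt, the peptidases Ace and Enpep, the receptors Agtr1a, Agtr1b, Agtr2 and Mas1, and the mineralocorticoid receptor Nr3c2. All 8 were present by symbol. Nuclear RNA was counted in 2 libraries of thoracic aorta perivascular adipose tissue (taPVAT), the fat around the chest part of the aorta, and 2 libraries of subscapular brown adipose tissue (BAT). Every library came from SS/HsdMcwiCrl rats, the Dahl salt-sensitive strain, all male and 16 weeks old, with normal as the disease label, and the labels name no treatment. No low-blood-pressure strain or salt-fed group is among these samples, so the libraries compare 2 fat depots of 1 strain. The labels number the libraries 1 and 2 in each tissue but do not say that the numbers mark animals, so p-values measure only the spread between these libraries.

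In the renin-angiotensin system, angiotensinogen, the product of Agt, is cut to angiotensin I, and angiotensin-converting enzyme, the product of Ace, makes angiotensin II from it. Angiotensin II acts mainly through the type 1 receptor, which rodents carry as the gene pair Agtr1a and Agtr1b, and aminopeptidase A, the product of Enpep, shortens it to angiotensin III. Agtr2 encodes the type 2 receptor, Mas1 the receptor for angiotensin-(1-7), and Nr3c2 the nuclear receptor that aldosterone and glucocorticoids share. Adipocytes are a known source of angiotensinogen outside the liver.

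Levels are given as CPM, here UMIs (unique molecular identifiers, 1 per captured RNA molecule) per 1000000 UMIs of a class in a library. They compare 1 gene between classes or libraries, not genes with each other, since they were not scaled by length. Nuclei were placed in classes by marker genes that hold none of the 8 members. A class other than adipocytes needed at least 3 distinct markers of its list, 2 more than of any other list but that of adipocytes. Median counts of distinct adipocyte markers and own markers were 6 and 4 in fibroblasts, 6 and 5 in pericytes and 7 and 5 in vascular endothelial nuclei. Such nuclei could also have at most 1.2% of UMIs from adipocyte markers. Adipocytes had to exceed this 1.2%. The last limit was set after the levels had been seen, because 7164 of 15563 nuclei with markers of another class (46.0%) lay above it, at a median of 4130 UMIs against 1648 below it. Those nuclei were kept apart as mixed, and levels or fold changes without the limit are given for Agt, Ace, Enpep, Agtr1a and Nr3c2. The nuclei numbered 71463 adipocytes, 4185 vascular endothelial nuclei, 1607 fibroblasts, 1269 pericytes, 492 myeloid nuclei, 234 T or NK lymphocytes and 144 B lymphocytes. These 7 classes had at least 20 nuclei in each of the 4 libraries. Among the top 10 genes of each class by fold over the other classes, none was a marker of another class, though the gate itself limits such markers.

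RNA of adipocyte markers was read in every class. The 12 adipocyte markers had a median of 19.1% to 41.8% of their adipocyte level in the 6 other tested classes, with single markers from 5.86% to 236%, and none of these markers was at 0 in any of these sums. A member at or under this share of its adipocyte level in another class cannot be told apart from background RNA. The median mitochondrial share was 7.54% in adipocytes and 15.6% to 21.0% in the other tested classes. Whether this RNA was free RNA, came from mixed nuclei or was a class's own was not tested, nor was its part or that of RNA quality in the differences below.

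Upstream windows of 4 members are shown: Agtr1a for its difference between classes and Agtr1b as its close copy with few counts, Enpep as a gene with its highest level in pericytes, and Ace as a gene with its highest level in vascular endothelium, among the 7 tested classes. Each runs 5′ to 3′ on the strand of its gene up to the base before the annotated gene span, from RefSeq on build GRCr8, which is not the build of the count files. Capitals mark GGGCGG and TATAAA on either strand.
Agtr1a upstream window, chr17:34435524-34435682, - strand, GRCr8: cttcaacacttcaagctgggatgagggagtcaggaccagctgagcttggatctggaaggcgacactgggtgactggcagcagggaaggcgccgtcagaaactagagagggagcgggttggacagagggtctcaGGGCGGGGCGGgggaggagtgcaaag
Agtr1b upstream window, chr2:104849263-104849512, - strand, GRCr8: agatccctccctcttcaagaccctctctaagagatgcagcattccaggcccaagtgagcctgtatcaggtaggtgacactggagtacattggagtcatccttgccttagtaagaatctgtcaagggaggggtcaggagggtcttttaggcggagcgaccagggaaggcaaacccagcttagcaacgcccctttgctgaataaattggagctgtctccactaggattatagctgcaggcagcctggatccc
Enpep upstream window, chr2:220526219-220526468, - strand, GRCr8: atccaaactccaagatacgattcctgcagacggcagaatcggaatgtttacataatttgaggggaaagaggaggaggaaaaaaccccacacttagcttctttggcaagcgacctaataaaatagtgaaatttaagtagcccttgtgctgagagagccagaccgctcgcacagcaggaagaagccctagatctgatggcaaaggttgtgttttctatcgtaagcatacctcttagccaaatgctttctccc
Ace upstream window, chr10:91409879-91410128, + strand, GRCr8: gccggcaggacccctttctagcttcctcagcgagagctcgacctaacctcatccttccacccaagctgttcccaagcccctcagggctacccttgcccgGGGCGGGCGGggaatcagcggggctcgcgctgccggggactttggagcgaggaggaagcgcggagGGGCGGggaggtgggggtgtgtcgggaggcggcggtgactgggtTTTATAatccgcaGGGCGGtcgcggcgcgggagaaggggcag

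The Agtr1a window of 159 bases held 2 overlapping copies of GGGCGG, a motif found on either strand in 17.8% of 33469 windows cut to their first 159 bases. The Ace window held 4 copies, of which the first 2 overlap, and TATAAA on the opposite strand, written TTTATA here. Among windows of 250 bases, 30.5% held GGGCGG and 12.9% held TATAAA. Neither these letters nor AGAACA, which 17.5% of windows of 250 bases held, occurred in the Agtr1b or Enpep windows. A match is a description of the letters and says nothing of a factor that binds. Windows for Agt and Nr3c2 were not used here.

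Agt, the angiotensinogen precursor, was read in all classes. Within each tissue, replicate 1 is given first throughout. In adipocytes its level was 73.3 and 261 CPM in taPVAT, and 47.9 and 131 in BAT. Both replicate 2 libraries were above both replicate 1 libraries, and the tissues overlapped. Adipocytes held 76.3% of all 38844 Agt UMIs, which is close to their share of all UMIs. Pooled over the libraries Agt stood at 105 CPM in adipocytes and 100 in all nuclei. In vascular endothelial nuclei Agt stood at 83.7 and 109 in taPVAT and 65.5 and 65.0 in BAT. In fibroblasts it stood at 77.5 and 102 in taPVAT and 49.9 and 65.4 in BAT. In pericytes, the mural cells of small vessels, it stood at 72.8 and 104 in taPVAT and 56.9 and 35.3 in BAT. Adipocytes were above these 3 classes in both replicate 2 libraries, while in both replicate 1 libraries adipocytes were below vascular endothelial nuclei and fibroblasts. The median of Agt relative to adipocytes was 81.8% in vascular endothelial nuclei, 77.0% in fibroblasts and 69.6% in pericytes. These values were above the marker medians of these classes but within the range of single markers, so Agt above background was not shown there. In BAT replicate 2 pericytes it was 26.8%, under the 36.3% that adipocyte markers kept there, so it cannot be told apart from background in that library.

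The joint fit of all class sums, with library as a term, covered 9281 genes and tested 4 of the 8 members, Agt, Enpep, Agtr1a and Nr3c2. Against adipocytes it called 57.8% of genes in fibroblasts, 55.3% in pericytes, 68% in vascular endothelial nuclei and 57% in myeloid nuclei, so a call of a member here is common among all genes. The sizes below, rather than the calls, set the members apart from one another. Of these 4 members the joint fit called 3 in each of those 4 classes. Its fold changes use a scaling between sums (TMM) that the CPM levels lack, so they can differ from ratios of levels. Agt was lower than in adipocytes by edgeR's quasi-likelihood test with Benjamini-Hochberg adjustment in fibroblasts (log2 fold change -0.92, SE 0.25, adjusted p = 0.00198) and pericytes (-0.90, SE 0.26, adjusted p = 0.00393). It was also lower in vascular endothelial nuclei (-0.70, SE 0.23, adjusted p = 0.00921) and myeloid nuclei (-0.81, SE 0.29, adjusted p = 0.0190) in the same test. These Agt calls depended on single libraries and on the tool. Without taPVAT replicate 2 the log2 fold change was -0.60 in fibroblasts, -0.65 in pericytes and -0.39 in vascular endothelial nuclei, with adjusted p = 0.0722, 0.067 and 0.18 by edgeR, and DESeq2 on all 4 libraries gave -0.64, -0.67 and -0.48 with adjusted p = 0.0556, 0.0551 and 0.132. The values were -0.53, -0.39 and -0.39 without the adipocyte marker limit, all called by edgeR.

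Within adipocytes, Agt was not even. Nuclei in which Kcnip1, Tshr and Ca3 were all seen made up 4.06% to 6.98% of adipocytes. Their Agt level was 149 and 521 in taPVAT and 117 and 351 in BAT, against 69.8, 250.2, 43.1 and 118 in the other adipocytes. The ratio was 2.14 and 2.08 in taPVAT and 2.72 and 2.99 in BAT, above 1 in 4 of 4 libraries. Enpep went the other way in the same nuclei, at 0.640 and 0.417 of the other adipocytes in taPVAT and 0.634 and 0.736 in BAT. Nr3c2 differed little, with ratios from 0.874 to 1.08. Ucp1, the uncoupling protein of brown fat, stood at 0.465 to 0.579 of the other adipocytes, while Plin1, which encodes the lipid droplet protein perilipin, stood at 1.37 and 1.95 times their level in taPVAT and 1.29 and 1.52 times in BAT. The split rests on genes known from earlier results of these data, was set after its values had been seen and has no test. A looser split, at least 2 of the 3 genes, had been tried first and gave Agt ratios from 1.60 to 2.93. Nuclei with all 3 genes held 7.83% to 15.7% of adipocyte Agt UMIs and those with at least 2 held 14.97% to 32.3%, so the greater part of adipocyte Agt lay outside them by either split.

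**Figure D1:**
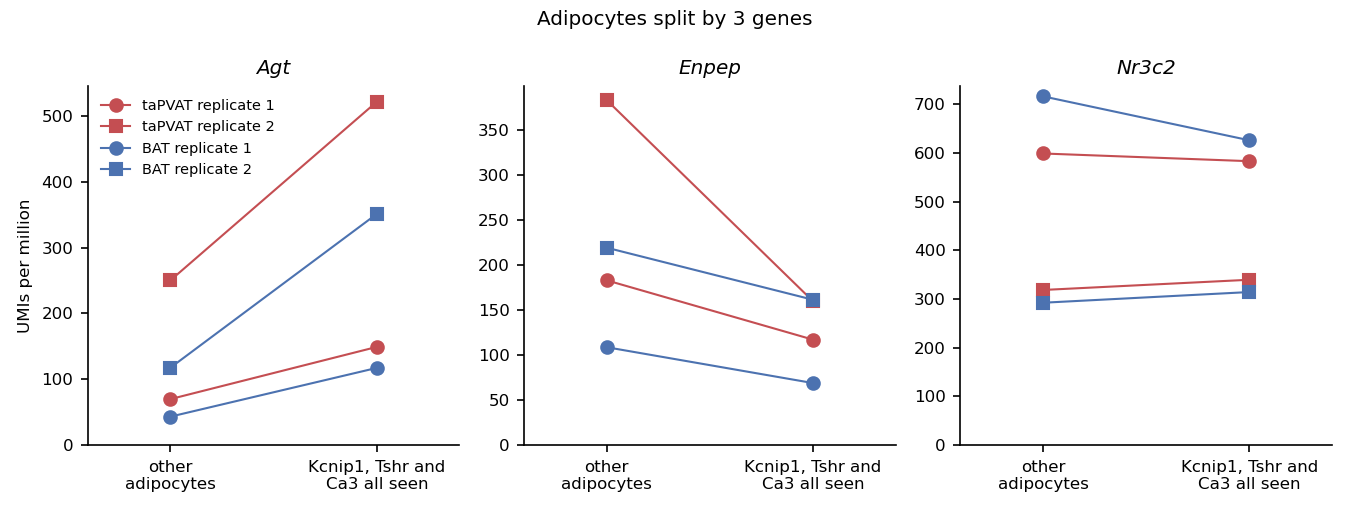
Level of Agt, Enpep and Nr3c2 in CPM (vertical axes) in adipocytes with all of Kcnip1, Tshr and Ca3 seen and in the other adipocytes (horizontal axes), 1 line per library. Agt is higher and Enpep lower in the first set in all 4 libraries, by ratios of 2.08 to 2.99 and 0.417 to 0.736.

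Ace, which makes angiotensin II, was sparse, with 45 to 109 UMIs per library over all nuclei. Among the 7 tested classes it was highest in vascular endothelial nuclei, at 10.5 and 14.9 CPM in taPVAT and 18.2 and 14.3 in BAT, from 13 to 37 UMIs per library. Fibroblasts followed at 6.37 and 7.08 in taPVAT and 5.55 and 4.09 in BAT, from 2 to 6 UMIs per library, below vascular endothelium in each library. With no adipocyte marker limit vascular endothelial nuclei stood at 5.16 to 9.17 and fibroblasts at 1.44 to 4.90, in the same order in each library. Adipocytes stood at 0.262 to 0.299, and myeloid nuclei and T or NK lymphocytes were at 0 UMIs in all 4 libraries. Ace did not pass the filter on low counts in the joint fit. Without that filter edgeR with Benjamini-Hochberg adjustment gave a log2 fold change over adipocytes of 5.50 in vascular endothelial nuclei (adjusted p = 2.06e-44) and 4.15 in fibroblasts (adjusted p = 5.5e-13). With clusters Ace passed the filter, and edgeR gave 5.32 (adjusted p = 6.62e-10) and 3.61 (adjusted p = 1.97e-06). All these values rest on few UMIs, and a call in a class that lets a gene pass the filter adds no support to its level.

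Enpep, which encodes aminopeptidase A, was highest in pericytes. It stood at 670 and 1576 CPM in taPVAT and at 1124 and 1790 in BAT. Adipocytes followed at 180 and 375 in taPVAT and 106 and 216 in BAT, and each of the 4 pericyte values was above every adipocyte value. Fibroblasts lay at 150 and 247 in taPVAT and 151 and 163 in BAT, which overlaps the adipocyte values. Vascular endothelial nuclei lay at 49.3 to 86.7 and myeloid nuclei at 20.2 to 63.2, and the median myeloid level was 19.7% of the adipocyte level, below the 22.7% to 34.0% that adipocyte markers kept there. In taPVAT replicate 2 the vascular endothelial level was also under the 27.4% that adipocyte markers kept there. It thus cannot be told apart from background in that library. Over adipocytes Enpep was higher in pericytes by a log2 fold change of 2.54 (SE 0.25, edgeR with Benjamini-Hochberg adjustment, adjusted p = 9.26e-11). It was lower in vascular endothelial nuclei (-1.75, SE 0.25, adjusted p = 2.23e-07) and myeloid nuclei (-3.07, SE 0.37, adjusted p = 1.12e-08) by the same edgeR test, and -0.47 in fibroblasts with adjusted p = 0.0987. Without the adipocyte marker limit the pericyte levels ran from 393 to 1283, and the log2 fold change was 1.89, while those in vascular endothelial and myeloid nuclei were -0.65 and -0.70, all called by edgeR. The few lymphatic endothelial nuclei of taPVAT, 81 and 33, had Enpep at 359 and 332.

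Agtr1a, the main type 1 angiotensin receptor gene of rodents, had the largest fold between classes of the 4 tested members. In pericytes it stood at 301 and 286 CPM in taPVAT and 238 and 179 in BAT, from 86 to 207 UMIs per library. In fibroblasts it stood at 127 and 75.5 in taPVAT and 139 and 85.8 in BAT, from 42 to 125 UMIs per library. Pericytes were above fibroblasts in 4 of 4 libraries, with means of 251 ± 55.4 and 107 ± 30.9 (SD, n = 4 each). Adipocytes stood at 0.806 to 1.90 and vascular endothelial nuclei at 1.91 to 8.79. Myeloid nuclei had 1 UMI in each library, T or NK lymphocytes 0 in each and B lymphocytes 1 in all. The filter on low counts admitted Agtr1a only through pericytes and fibroblasts. In the other tested classes it stood at 10.4 CPM or less, and Ace failed the filter at 10.5 to 18.2 in vascular endothelial nuclei. Calls of Agtr1a in pericytes and fibroblasts thus add no support to its levels. Over adipocytes the log2 fold change was 7.54 in pericytes (SE 0.25, edgeR with Benjamini-Hochberg adjustment, adjusted p = 2.4e-21) and 6.14 in fibroblasts (SE 0.25, adjusted p = 1.02e-19). In vascular endothelial nuclei it was 1.65 (SE 0.33, adjusted p = 6.77e-05 by edgeR), from 4 to 21 UMIs per library, and with clusters in place of the gate it was 0.54 with adjusted p = 0.291. Without the adipocyte marker limit pericytes ran from 87.2 to 198 and fibroblasts from 39.6 to 70.1, so the level in these classes depends on how mixed nuclei are treated, while their order over adipocytes held. The gated pericytes and fibroblasts held 20.4% and 12.4% of all 2827 Agtr1a UMIs, and mixed and ungated nuclei together with adipocytes held most of the rest, at 22.4%, 28.2% and 13.5%.

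Smooth muscle nuclei, identified by Myh11, Acta2 and other contractile genes, numbered 12 to 84 per library and had 1 and 0 Agtr1a UMIs in taPVAT and 1 and 0 in BAT. In the deepest of these 4 sums, BAT replicate 2, a count of 0 allows up to 16.1 CPM, under the pericyte level of 179 in the same library. Mesothelial nuclei, the lining cells marked by Msln and Upk3b, were found in taPVAT only. Their 22 and 14 nuclei gave 19 and 13 Agtr1a UMIs, which are 417 (95% exact Poisson interval 251 to 651) and 404 (215 to 691) CPM. Unsupervised clusters put more nuclei there, 354 and 66, and gave 178 and 469.9 from 185 and 77 UMIs. The gate with no adipocyte marker limit gave 221 and 309. These intervals cover counting error only. Splitting fibroblasts by Pi16, a gene of adventitial fibroblasts, gave no steady order for Agtr1a, which was 82.1 with and 157 without Pi16 in taPVAT replicate 1, but 156 with and 75.1 without in BAT replicate 2. Enpep was lower with Pi16 in 4 of 4 libraries, at 89.2 to 119.7 against 160.4 to 328, from 6 to 40 UMIs with Pi16. Ace was higher with Pi16 in 4 of 4 libraries, but from only 1 to 5 UMIs with it and 1 to 3 without. Pi16 is one of the fibroblast markers, and these splits have no test.

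**Figure D2:**
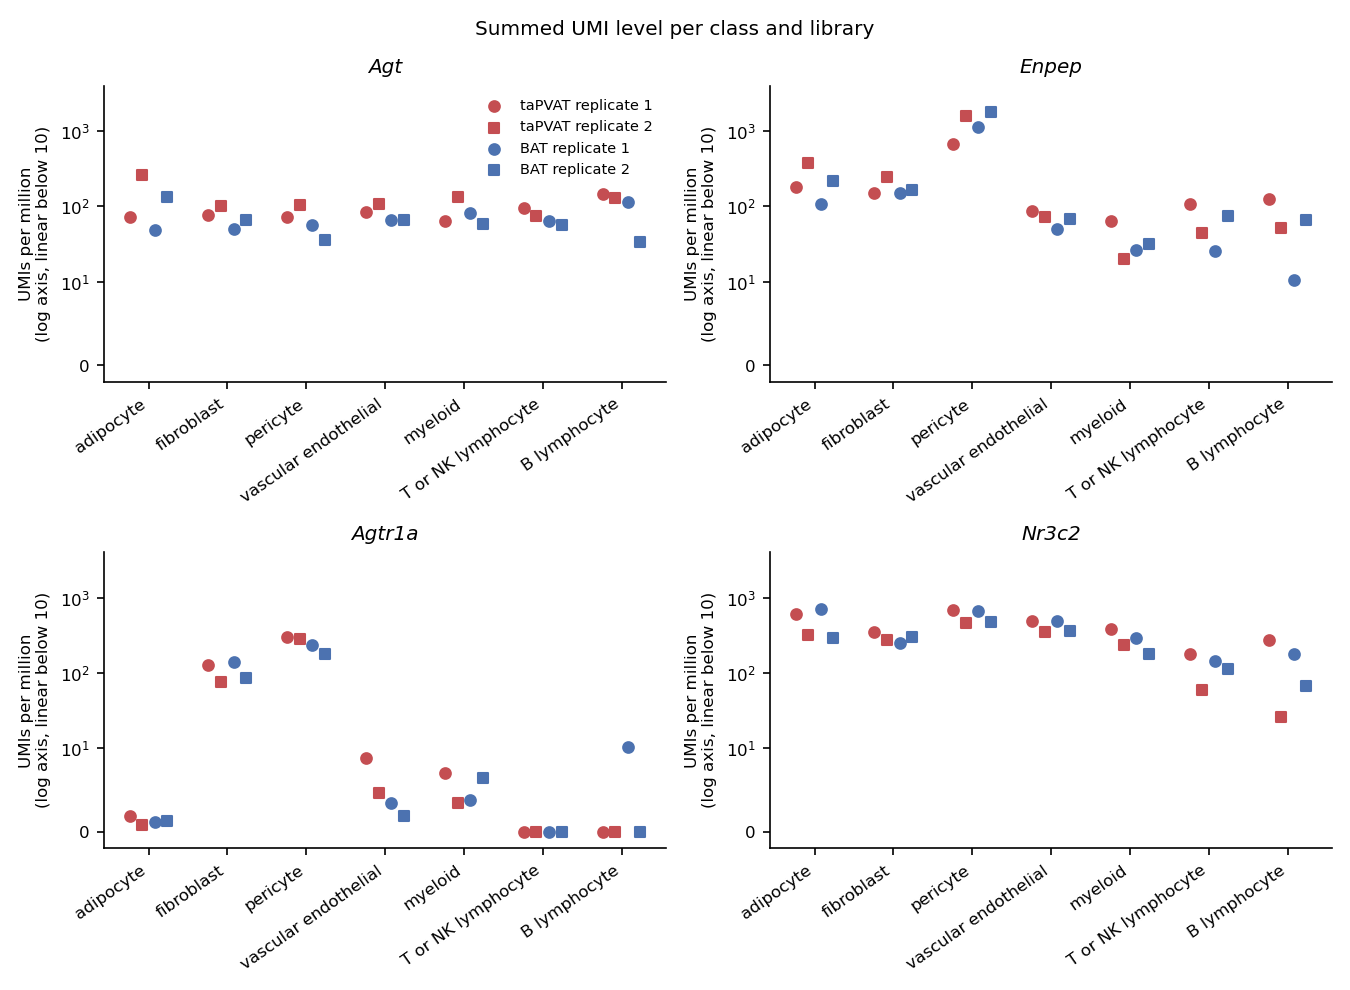
Level in CPM (vertical axes, logarithmic above 10 and linear below) of Agt, Enpep, Agtr1a and Nr3c2 in 7 classes (horizontal axes), 1 point per library, red for taPVAT, blue for BAT, circles for replicate 1 and squares for replicate 2. Agtr1a stands between 75.5 and 301 in fibroblasts and pericytes and under 11 in the other 5 classes, while Agt and Nr3c2 are read in all 7.

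The other angiotensin receptors were hardly seen. Agtr1b had 21 and 9 UMIs in taPVAT and 14 and 3 in BAT over all nuclei, 35 of these 47 in adipocytes and 1 in pericytes. Its pooled level was 0.124 CPM in adipocytes and 0.121 in all nuclei, so the adipocyte share is close to that class's share of all UMIs. Because Agtr1a and Agtr1b are close copies, reads shared between them are uncertain, as the counting of such reads is not given in the sources used here. Agtr2 had 1 UMI in all 4 libraries, in a fibroblast sum of taPVAT replicate 2. Mas1 had 35 and 8 UMIs in taPVAT and 28 and 18 in BAT. Smooth muscle nuclei had 2 Mas1 UMIs in each replicate 1 library and 0 in each replicate 2 library, or 26.4 (95% exact Poisson interval 3.20 to 95.5) and 14.1 (1.70 to 50.8) CPM in taPVAT and BAT replicate 1. Pooled over the libraries, Mas1 stood at 9.25 (2.52 to 23.7) in smooth muscle nuclei, from 4 UMIs, and at 0.163 (0.119 to 0.217) in adipocytes. These intervals cover counting error only, and both replicate 2 libraries had 0 in smooth muscle. Beyond this, no order of classes can be read at these counts.

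Nr3c2, the mineralocorticoid receptor gene, differed less between classes than Agtr1a or Enpep. In pericytes it stood at 681 and 459 CPM in taPVAT and 676 and 479.6 in BAT. In adipocytes it stood at 599 and 319.7 in taPVAT and 712 and 294 in BAT, with both replicate 1 libraries above both replicate 2 libraries. Vascular endothelial nuclei lay at 347 to 492, fibroblasts at 252 to 346 and myeloid nuclei at 179 to 386. T or NK lymphocytes lay at 59.6 to 177, a median of 25.0% of the adipocyte level, below the 25.7% to 41.8% that adipocyte markers kept there. Against adipocytes Nr3c2 was lower in fibroblasts (log2 fold change -0.87, SE 0.19, edgeR with Benjamini-Hochberg adjustment, adjusted p = 0.000173) and myeloid nuclei (-1.15, SE 0.20, adjusted p = 1.15e-05). Its log2 fold change was 0.21 in pericytes and -0.33 in vascular endothelial nuclei, with adjusted p = 0.346 and 0.113 by edgeR, while DESeq2 gave 0.47 in pericytes with adjusted p = 0.0374. Without the adipocyte marker limit the fibroblast and myeloid values were -0.34 and -0.28, both called by edgeR. Lymphatic endothelial nuclei stood at 842 and 611 in taPVAT, and at 376 and 1201 in BAT from 5 nuclei in each library, so that BAT replicate 1 was below its adipocytes. Lymphatic clusters stood at 834 and 554 in taPVAT and 983 and 683 in BAT, from 31 and 23 nuclei there, above the adipocyte clusters in all 4 libraries (605, 324, 719 and 300.3). These clusters were made from variable genes of the same nuclei, so the values are a description with no test.

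**Figure D3:**
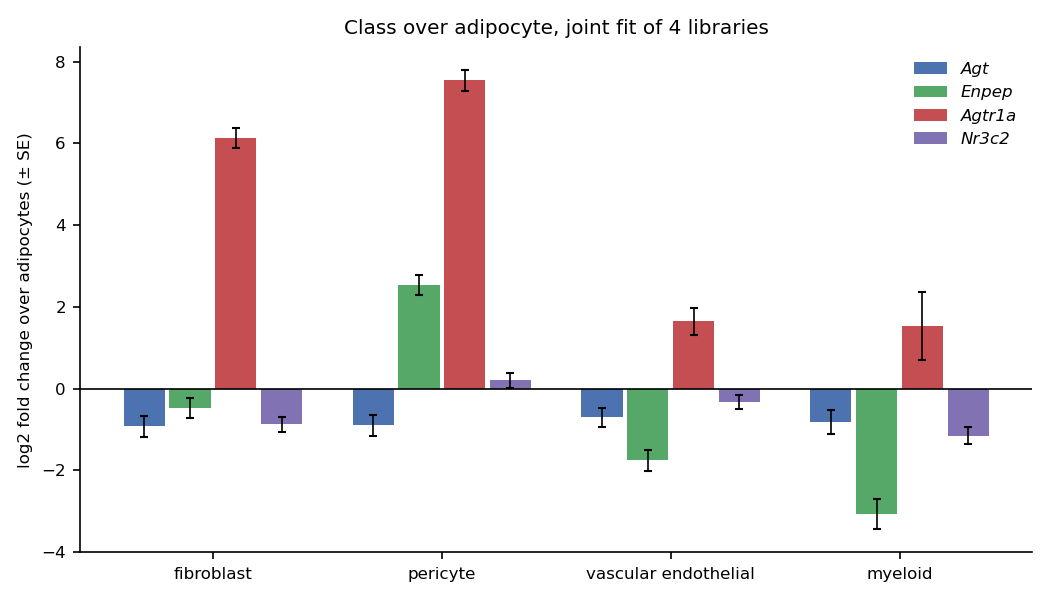
Log2 fold change of 4 members over adipocytes (vertical axis, with SE bars) in 4 classes (horizontal axis), from the joint edgeR fit of 4 libraries. Agtr1a reaches 7.54 in pericytes and 6.14 in fibroblasts, and Enpep 2.54 in pericytes, while Nr3c2 lies between -1.15 and 0.21.

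In lymphocytes the same joint fit called 43.1% of genes in T or NK nuclei and 37% in B nuclei, and of the 4 tested members called 3 and 2, all lower than in adipocytes, against 26.3% and 24.3% of all genes called lower. Nr3c2 was lower by -2.40 in T or NK nuclei and -2.27 in B nuclei on the log2 scale, and Enpep by -2.30 and -2.47. Without the adipocyte marker limit Nr3c2 was -0.70 and -0.59 and Enpep -0.94 and -0.42, the last with adjusted p = 0.354 by edgeR.

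The comparison of taPVAT with BAT asked whether any of the genes differed between the fat of the aorta and brown fat. The main test had no replicate block, as the labels do not tie the numbers. No member passed it in all nuclei together, where edgeR called 0% of 16625 genes, and 473 genes (2.85%) had an unadjusted p under 0.05, none of them a member. There Agt was higher in taPVAT by a log2 fold change of 0.93 (SE 0.73, edgeR adjusted p = 1), with 72.4 and 250.1 CPM in taPVAT and 47.2 and 124 in BAT. The tissues overlapped for Agt, and without taPVAT replicate 2 its value was -0.24. Enpep was 0.70 (SE 0.51), Agtr1a 0.65 (SE 0.26) and Nr3c2 -0.10 (SE 0.49), each with an adjusted p of 1 by edgeR. For Agtr1a the 2 taPVAT libraries, at 9.48 and 7.89, did not overlap the 2 BAT libraries, at 5.58 and 5.62. Agtr1b, with 47 UMIs, did not overlap either, so this held for 2 of the 7 members tested, against 21.3% of all genes tested. Separation of this kind is therefore common among genes that were not called. In such sums more cells of a type and more RNA per cell cannot be told apart. Mesothelial nuclei, found in taPVAT only, held 19 of 1290 and 13 of 446 Agtr1a UMIs of the taPVAT libraries by the gate and 185 and 77 by clusters. Pericyte clusters held 496 and 186 in taPVAT and 234 and 189 in BAT, and the part of either class in the difference was not tested. DESeq2 called 0 of the members too, with 108 genes called. With a replicate block, which the labels do not back, Agt and Enpep were called in all nuclei and in adipocytes, among 386 and 369 genes called.

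Within classes no member was called in the main fits either, and each fit had few calls to compare with. In adipocytes 0% of 15514 genes were called, in vascular endothelial nuclei 0% of 10132, in fibroblasts 0.556% of 8452 and in pericytes 0.0301% of 6649. None of the 7, 4, 4 and 4 members tested in these fits was called, nor any of the 2 tested in myeloid nuclei or the 1 in T or NK lymphocytes, where 0% of 4312 and 0% of 1661 genes were called. No member passed the filter in B lymphocytes. An unadjusted p under 0.05 was given to 2.11% of genes in adipocytes, 1.68% in vascular endothelial nuclei, 5.51% in fibroblasts, 1.3% in myeloid nuclei and 1.2% in T or NK lymphocytes, none of them a member. Adipocytes of the tissues lay largely in different unsupervised clusters. In replicate 2, 1 cluster held 6370 nuclei from taPVAT and 240 from BAT, and another held 566 and 8816. These clusters held 6634 and 9406 nuclei in all, so nearly all came from replicate 2 libraries. Most adipocyte clusters were split by replicate number in this way, and no step aligned the libraries before clustering. Tissue and library thus cannot be told apart in this separation. In adipocytes as a whole Agt was 0.95 (SE 0.74) and Enpep 0.83 (SE 0.53) on the log2 scale. Without taPVAT replicate 2 these were -0.32 and 0.13, and without BAT replicate 2 Agt was 1.92 with adjusted p = 0.021 by edgeR. A tissue left with 1 library was assumed to vary like the other tissue, here and wherever 1 library is left out of a tissue comparison. In pericytes Agt was 0.86 (SE 0.35), the only member with an unadjusted p under 0.05 in edgeR (0.032, adjusted p = 1), and 3.81% of the genes tested there had one. In vascular endothelial nuclei and fibroblasts Agt was 0.49 (SE 0.28) and 0.60 (SE 0.35). In these 3 classes both taPVAT libraries were above both BAT libraries for Agt, but libraries of the tissues also did not overlap for 31.4% of genes tested in pericytes, 23.3% in vascular endothelial nuclei and 29.7% in fibroblasts. Of the 4 members tested in each, Agtr1a in pericytes and Enpep in vascular endothelial nuclei were higher in taPVAT without overlap too. In adipocytes 2 of 7 members did not overlap, Agtr1b higher and Mas1 lower in taPVAT, against 19.7% of genes. None of the members tested in myeloid or T or NK nuclei separated, against 25.7% and 27% of genes. Agt also did not overlap in T or NK and B lymphocytes, from 26 and 24 UMIs, too few to pass the filter there. With clusters Agt did not overlap in pericytes, fibroblasts or vascular endothelial nuclei, while with no adipocyte marker limit the tissues overlapped in all 3 classes, as in pericytes at 70.7 and 207 CPM in taPVAT against 38.8 and 91.7 in BAT.

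Agtr1a in pericytes was 0.43 (SE 0.27) and in fibroblasts -0.20 (SE 0.36), with edgeR adjusted p = 1 in both. Enpep in pericytes was -0.45 (SE 0.41), with 670 against 1124 in replicate 1 and 1576 against 1790 in replicate 2, while in adipocytes it was 180 against 106 and 375 against 216. Within single adipocyte clusters Enpep went either way between taPVAT and BAT. Examples for Enpep, 1 of each direction, are 95.2 against 116 and 130 against 93.8 in replicate 1, and 143 against 205 and 442 against 364 in replicate 2. The part of cluster make-up in the adipocyte difference was not tested. The replicate 2 direction in pericytes rests on how nuclei were classed: taPVAT over BAT was 0.881 by the gate, 1.42 without the adipocyte marker limit and 1.203 with clusters. Whether the tissue difference itself differed between these classes was tested by an interaction term added after these values were seen. For Enpep in pericytes minus adipocytes it gave a log2 difference of -1.27 (SE 0.46), with an unadjusted p of 0.0109 and an edgeR adjusted p of 1, where 0.0323% of 9281 genes were called and 2.24% had an unadjusted p under 0.05. No member was called in any of the 6 interaction contrasts, which called 0.0862% of genes for fibroblasts, 0.0215% for vascular endothelial nuclei and 0% for the other 3 classes. Without taPVAT replicate 2 Enpep in pericytes was -1.25 with adjusted p = 0.0435 by edgeR, with the spread taken from the 2 BAT libraries alone, and without taPVAT replicate 1 it was 0.05.

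**Figure D4:**
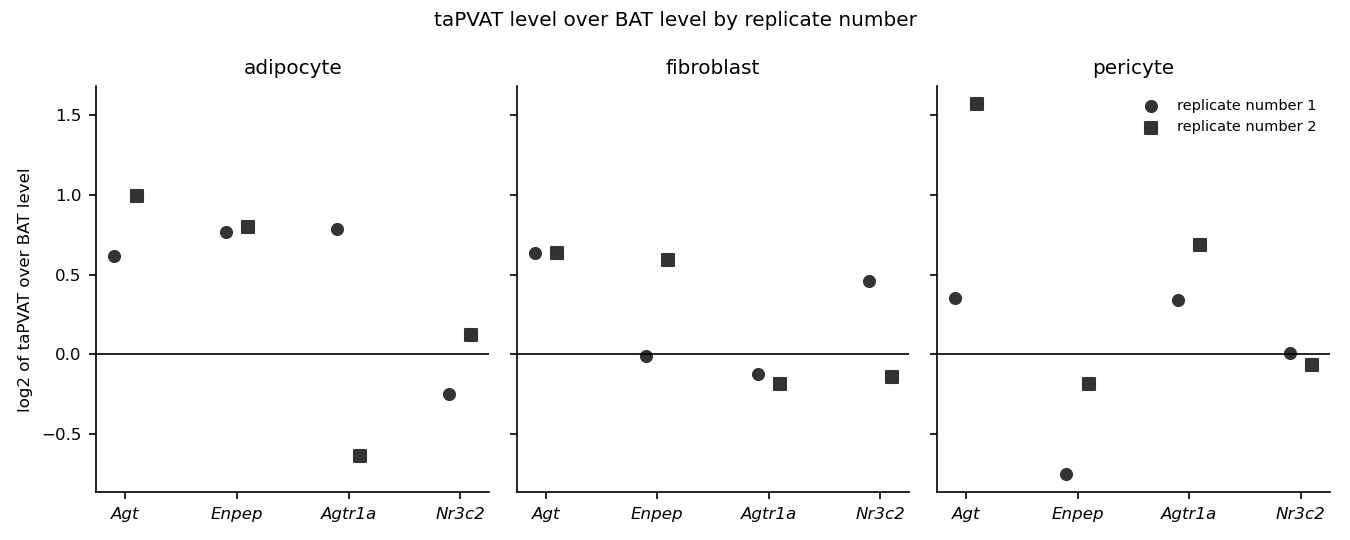
Log2 of the taPVAT level over the BAT level for libraries with the same replicate number (vertical axis) for 4 members (horizontal axes) in adipocytes, fibroblasts and pericytes. The labels do not say that these numbers mark animals, so the pairs are for display only. Agt is above 0 in all 6 points, while Enpep is above 0 in adipocytes and, with the gate plotted here, below 0 in pericytes, where replicate 2 turns above 0 without the adipocyte marker limit or with clusters. Within single adipocyte clusters, not plotted here, Enpep went either way, lower in taPVAT more often than higher.

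Other genes of the pathway were taken from 4 lists. None was called between the tissues by edgeR in all nuclei or in any of the 7 classes, and the lists were not counted under the alternatives. In all nuclei 13 of 15 peptide processing genes, 10 of 11 receptor signalling genes, 6 of 10 corticosteroid synthesis and handling genes and 10 of 10 corticosteroid-responsive genes were tested. Their median log2 fold changes were 0.041, 0.043, -0.211 and 0.016, against -0.001 for all genes. Ctsg and Mrgprd had 0 UMIs in all nuclei. Mme, which encodes the peptidase neprilysin, stood at 341 to 454 CPM in adipocytes and 39.8 to 173 in pericytes. Itpr1, a calcium release channel downstream of the type 1 receptor, stood at 1330 to 1853 in adipocytes and 774 to 1176 in pericytes. The glucocorticoid receptor gene Nr3c1 stood at 103 to 122 in adipocytes and 66.4 to 114 in pericytes. Klf9, a gene that glucocorticoids induce, stood at 111 to 294 in adipocytes and 237 to 534 in fibroblasts.

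Against adipocytes the joint fit called 26.8% of all genes higher and 28.5% lower in pericytes, 28.1% and 29.7% in fibroblasts, 33.9% and 34.1% in vascular endothelial nuclei and 26.3% and 30.7% in myeloid nuclei. In T or NK lymphocytes it called 16.8% and 26.3%, and in B lymphocytes 12.7% and 24.3%. The median log2 fold changes over all genes were -0.056, -0.051, -0.061, -0.160, -0.324 and -0.512 in the same order of classes. Of the 10 tested peptide processing genes, 4 were higher and 3 lower in pericytes, 3 and 3 in fibroblasts, 3 and 4 in vascular endothelial nuclei, 5 and 2 in myeloid nuclei, 1 and 3 in T or NK lymphocytes and 2 and 2 in B lymphocytes. Their medians were -0.016, 0.171, -0.112, 0.765, -0.302 and -0.012. The 7 tested receptor signalling genes had 2 higher and 1 lower in pericytes, 2 and 2 in fibroblasts, 5 and 1 in vascular endothelial nuclei, 3 and 3 in myeloid nuclei, 2 and 4 in T or NK lymphocytes and 1 and 4 in B lymphocytes. Their medians were 0.077, 0.137, 0.987, 0.024, -0.966 and -1.475. Of the 2 tested genes of corticosteroid synthesis and handling, at most 1 was higher and at most 1 lower in each of the 6 classes. Of the 7 tested corticosteroid-responsive genes, 4 were higher in pericytes, 6 in fibroblasts and 5 in vascular endothelial nuclei, and 0 were lower in these 3 classes. In myeloid nuclei 2 were higher and 2 lower, in T or NK lymphocytes 2 and 3, and in B lymphocytes 1 and 2. The medians of this list were 0.714, 1.83, 0.939, 0.208, -0.950 and -1.09. The following genes were chosen after their values were seen. Anpep, the aminopeptidase that acts after Enpep on angiotensin III, was higher in fibroblasts by 6.17 (edgeR adjusted p = 4.06e-19) and in pericytes by 4.19 (edgeR adjusted p = 1.66e-11). Hsd11b1, which makes active glucocorticoid, was higher in fibroblasts by 2.89 (edgeR adjusted p = 4.47e-12), while Hsd11b2, which protects Nr3c2 from glucocorticoid in the kidney, had 34 UMIs in all nuclei.

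The genes most like each member were ranked by Pearson correlation of log2 levels over 28 sums, from 4 libraries and 7 classes, among 9427 genes. The 28 sums share libraries, depth and background RNA, so the values are descriptions. Agtr1a was most like Col6a6 (r = 0.96), Rem1 (0.95) and Heyl (0.94). Nr3c2 was most like Cdc42bpa (0.93), Psd3 (0.90) and Arhgef12 (0.88), and Enpep most like Mtcl1 (0.87), Ptprk (0.85) and Daam2 (0.85). Agt had the weakest likeness, with Pacc1 at 0.79, Atf1 at 0.66 and Faf2 at 0.65.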

How the data were processed

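The members and gene lists were chosen with earlier results of these data known. Frozen adipose nuclei were isolated with a commercial kit and profiled with a 3-prime droplet kit, per the labels' protocols. The authors deposited UMI counts per gene and barcode, whole numbers with no normalization, and Cell Ranger 7.1.0 and Rnor_6.0 are named in the submitters' processing notes. The handling of introns and of reads shared by copies is not given in the sources used here. Libraries held 14765 to 44637 barcodes and 63654436 to 158140959 UMIs, against a targeted recovery of 10000 per the labels, and pairs of libraries shared 126 to 424 barcodes.

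Barcodes with at least 500 genes were kept. Scrublet in scanpy 1.11.5 scored doublets per library and called 6.61% to 15.3% in 3 libraries. In BAT replicate 1 it called 0, so the 6402 highest scores (18.5%) were removed there, a number set from how the other libraries' calls compared with their expected rates. This left 11520 to 38350 nuclei per library. The gate levels were set on the data. Other classes needed 3 markers and a lead of 2 over any list but that of adipocytes. Adipocytes needed at least 4 of 12 adipocyte markers with at most 1 marker of any other list. A marker seen in over 20% of nuclei was left out, except on the adipocyte list. The 12 adipocyte markers were seen in 53.7% (Cidea) to 98.2% (Acsl1) of nuclei. The clusters of the alternative class definition came from leidenalg 0.10.2 at resolution 3, raised after a first, coarser run had been seen.

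UMI counts were summed per library and class and tested with edgeR 4.0.16 (quasi-likelihood test, TMM, filterByExpr, Benjamini-Hochberg over all genes of a fit, threshold 0.05) in R 4.3.3. taPVAT was compared with BAT in all nuclei and in each class, and each class with adipocytes in 1 fit with library as a term. The SE of a fold change is its size divided by the root of the F statistic. Fits were tested on simulated data. Alternatives were DESeq2 1.42.0, no filter on low counts, stricter nucleus filters, no doublet removal, a replicate block, a stricter gate, clusters, no adipocyte limit and leaving out each library. Named genes were all members, for each list the gene with the highest mean level (none was called between tissues), and the 3 genes most correlated with each member of at least 20 CPM in a class. Outside this rule, Ctsg and Mrgprd were named for having 0 UMIs, and Anpep, Hsd11b1 and Hsd11b2 after their values were seen. Poisson intervals and the limit for a count of 0, 3 counts of the total, cover counting error only. Some genes of the pathway lists are not reported here by name.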

Additional observations from a re-analysis of the deposited data

How the results depend on the processing

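Across the alternatives that gave a value, Agtr1a in pericytes and fibroblasts and Enpep in pericytes kept their direction and their call over adipocytes. Their log2 fold changes were 6.42 to 7.82, 5.11 to 6.44 and 1.89 to 2.83. The main filter on low counts admitted Agtr1a only through pericytes and fibroblasts, so its kept calls there add no support to its levels. The filter on mitochondrial share left 6 to 28 pericytes, 11 to 54 fibroblasts and 1 to 7 myeloid nuclei per library. These classes thus lacked the 20 nuclei needed in each library and gave no value under that filter. Agt over adipocytes lost its call in at least 3 alternatives in each of fibroblasts, pericytes, myeloid, vascular endothelial and T or NK nuclei. With the replicate block, 2 members were called in all nuclei and 2 in adipocytes between the tissues, Agt (0.84 in both) and Enpep (0.70 and 0.82), with edgeR adjusted p = 0.0131 and 0.0244 in all nuclei and 0.00614 and 0.00649 in adipocytes. The same fits called 386 of 16625 genes in all nuclei and 369 of 15514 in adipocytes. The block changed no other call of a member. Same-numbered libraries deviated together from their tissue means (r = 0.762 over 14782 genes), but with 2 pairs and no label that ties the numbers, this is only a hint. Without the filter on low counts, 5 of 8 members tested rather than 3 of 4 were called in fibroblasts over adipocytes, and 6850 genes rather than 5366. More genes were tested without that filter, so these counts are not a rise in the share called. Without the adipocyte marker limit, an alternative added after seeing the data, 1 rather than 2 was called in B lymphocytes over adipocytes, and 2261 genes rather than 3430. Leaving out libraries gave 0 to 1 members called between the tissues in adipocytes and in pericytes.

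The following log2 fold changes, of taPVAT over BAT unless stated, changed sign. None was called with all 4 libraries under the main settings, and the cause was not tested. Nr3c2 in pericytes was 0.06 with at least 1000 genes per nucleus. Agtr1a in fibroblasts was 0.05 with clusters and 0.08 without the marker limit. Nr3c2 in fibroblasts was -0.11 and Enpep in pericytes 0.03 without that limit. Enpep in fibroblasts over adipocytes was 0.03 with clusters. Leaving out libraries gave ranges for Agt of -0.24 to 1.83 in all nuclei and -0.32 to 1.92 in adipocytes, and for Agtr1a of -0.50 to 0.68 in adipocytes and -0.60 to 0.12 in fibroblasts. For Enpep they were -0.15 to 0.63 in fibroblasts and -1.25 to 0.05 in pericytes. For Nr3c2 they were -0.62 to 0.56 in all nuclei, -0.58 to 0.58 in adipocytes, -0.09 to 0.33 in fibroblasts, -0.38 to 0.13 in pericytes and -0.31 to 0.14 in vascular endothelial nuclei.

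Counts over all genes moved more. Between the tissues edgeR called 0 in all nuclei, 0 in adipocytes, 47 in fibroblasts, 2 in pericytes and 0 in vascular endothelial nuclei, and leaving out a library gave 0 to 102, 0 to 107, 95 to 136, 3 to 61 and 0 to 36. The other alternatives gave 0 to 386, 0 to 369, 6 to 174, 0 to 50 and 0 to 50. The stricter gate left B lymphocytes with 12 nuclei in BAT replicate 2, and the clusters put T and B markers together in 1 unnamed cluster of 1017 nuclei, so these gave no value there. The filters on genes per nucleus and on mitochondrial share also left too few lymphocytes for a value. Mas1, Agtr1b and Agtr2 had at most 1 UMI per library in each tested class other than adipocytes.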
